A study of Drosophila melanogaster with 3 samples.

Results

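The 8 genes described here, indra, CG12054, CG10336, CG14100, CG2059, CG9147, Ugalt and Pp2C1, are the little-studied genes among those nearest to the strongest Pdp1-eGFP peaks of Drosophila melanogaster embryos. They were chosen by the deposited signal value, from the 20 strongest peaks of the optimal peak list on the dm6 assembly. Only peaks found in all 3 replicates were taken. The chosen genes are 8 of 13945 annotated protein-coding genes. Their signal values are therefore given as a description without a test. The other 12 of the 20 peaks lay nearest to genes such as Pdp1 itself, tara, ETHR, Alas and CG32369.

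All libraries came from whole embryos of mixed sex, 0 to 24 h old, of 1 transgenic fly line that stably expressed Pdp1 with a C-terminal eGFP tag. The tagged protein was precipitated with an antibody against GFP. There were 3 biological replicates with 1 technical replicate each and 1 group in all, so no condition could be compared with another. The embryos were pooled over stages and tissues, so a peak bound strongly in few nuclei and one bound weakly in many cannot be told apart. Expression of these genes was not analysed here.

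Pdp1 belongs to the PAR bZIP transcription factors. These proteins bind DNA as dimers through a basic region next to a leucine zipper, and their sites are short palindromes read by both partners. In flies Pdp1 is best known for driving Clk expression in clock neurons and for controlling muscle genes, and it also acts in growth. Of the 8 genes, indra encodes a zinc finger protein known for its part in the upkeep of ribosomal DNA copy number in the germline. Ugalt encodes a transporter that carries UDP-galactose into the Golgi, and Pp2C1 a serine/threonine phosphatase of the metal-dependent PP2C family. The gene models used here hold no functions, and none is described here for CG12054, CG10336, CG14100, CG2059 and CG9147.

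The sequences under the summits fell into a set with a PAR bZIP word and a set without one. They are shown because this division ran along with the pattern over replicates given further on. Each is the Release 6 (dm6) reference, plus strand, over 101 bases centred on the strongest summit, with capitals marking matches to the 8-base pattern TTRYRYAA, in which R is A or G and Y is C or T. The pattern is its own reverse complement, so a match on either strand is a match on both. The windows with a match were chr3L:1342374-1342474 for indra, chr3R:31220871-31220971 for CG12054, chr2L:18689647-18689747 for CG10336, chrX:7286727-7286827 for CG2059 and chrX:4684705-4684805 for Pp2C1.
indra: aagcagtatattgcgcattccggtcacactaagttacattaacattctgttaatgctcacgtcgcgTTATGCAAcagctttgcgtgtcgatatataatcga
CG12054: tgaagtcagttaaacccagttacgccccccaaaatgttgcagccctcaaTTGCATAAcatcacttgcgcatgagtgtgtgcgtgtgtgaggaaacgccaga
CG10336: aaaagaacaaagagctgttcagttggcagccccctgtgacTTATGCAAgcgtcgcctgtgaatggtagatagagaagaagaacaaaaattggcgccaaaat
CG2059: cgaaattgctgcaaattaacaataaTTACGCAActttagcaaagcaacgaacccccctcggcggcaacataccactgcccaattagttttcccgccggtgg
Pp2C1: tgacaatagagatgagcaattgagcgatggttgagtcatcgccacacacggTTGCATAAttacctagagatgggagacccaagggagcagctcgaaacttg

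The windows without a match were chr3L:19590559-19590659 for CG14100, chr2L:6066054-6066154 for CG9147 and chrX:2703837-2703937 for Ugalt. They are shown for comparison with those above.
CG14100: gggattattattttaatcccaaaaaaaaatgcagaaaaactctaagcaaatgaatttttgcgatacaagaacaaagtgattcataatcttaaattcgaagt
CG9147: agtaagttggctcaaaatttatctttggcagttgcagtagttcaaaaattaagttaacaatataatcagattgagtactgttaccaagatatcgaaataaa
Ugalt: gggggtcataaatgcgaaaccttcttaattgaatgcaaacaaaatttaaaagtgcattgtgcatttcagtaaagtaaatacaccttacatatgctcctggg

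TTRYRYAA thus lay within 50 bp of the strongest summit at 5 of the 8 genes. The same held for 48.9% of the 1358 strongest optimal summits, 35.8% of all 13583, and 4.92% of equally wide windows 300 bp from the summits. The centre of the word was 2.5 bp from the summit at CG12054, 4.5 bp at Pp2C1, 6.5 bp at CG10336, 19.5 bp at indra and 21.5 bp at CG2059. Its place relative to the transcription start site (TSS) varied, since the word lay upstream of the start at indra, beside it at CG10336, in the 5′ UTR at CG12054 and CG2059, and deep in an intron at Pp2C1.

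A single word recurred among them. The indra and CG10336 windows held TTATGCAA, and those of CG12054 and Pp2C1 held TTGCATAA, which is the same word read on the other strand. It was thus present at 4 of the 8 strongest summits, beside 8.84% of the 1358 strongest and 6.40% of all optimal summits. This word was picked after the windows had been read, so the count is a description. CG2059 held TTACGCAA. The canonical site TTAYGTAA, whose matches are a subset of those to TTRYRYAA, was within 50 bp of 0 of the 8 summits, beside 12.0% of all optimal summits. One such site, TTATGTAA, lay 64.5 bp from the CG10336 summit, outside the window. In windows of 300 bp on each side, a width chosen after the data were seen, TTRYRYAA was found at 6 of the 8 genes, against 52.1% of all optimal summits. The addition was CG14100, with TTACATAA 273.5 bp from its summit. Read on the other strand this is TTATGTAA, so it is also a canonical site outside the window. No match says only that these letters are not in the window.

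**Figure D1:**
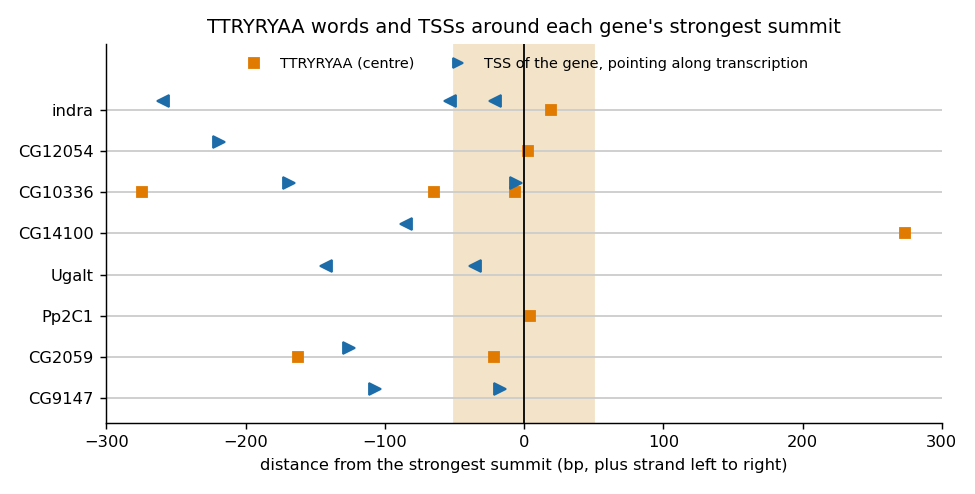
Positions of TTRYRYAA words (orange squares) and of annotated TSSs of each gene (blue arrowheads, pointing along transcription) in bp from the strongest summit, with the window of 50 bp on each side shaded. In 5 rows a square lies in the shaded window, the rows of CG14100, Ugalt and CG9147 have none there, and the row of Pp2C1 shows no TSS because its TSS is 2148 bp away.

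The base composition of the windows divided along the same line. The 5 windows with TTRYRYAA had GC contents of 40.6% (indra), 44.6% (CG10336), 48.5% (CG2059 and Pp2C1) and 49.5% (CG12054). The 3 without it had 26.7% (CG14100), 28.7% (CG9147) and 35.6% (Ugalt), so the sets did not overlap. Over the 1358 strongest optimal summits the medians were much closer, 42.6% with the word and 40.1% without it. Over the whole optimal list they ran the other way, 39.6% with it and 40.6% without.

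Most of these peaks sat on the promoter of the gene they were assigned to. Within 1 kb of a TSS each of the 8 genes had an optimal summit, as did 44.1% of all protein-coding genes. For 7 of the 8 that summit was the strongest one, and each of these 7 was less than 250 bp from the start. The rule asked for peaks nearest to these genes, so nothing is read from that count. Of all optimal summits 50.9% lay in such windows, and of the 1358 strongest 71.9%.

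indra (chr3L:1339460-1342403, minus strand) had its peak at chr3L:1341916-1342775, with the summit in the short intergenic gap upstream of its start. The summit was 21 bp upstream of the indra TSS and 69 bp from the 3′ end of Ptp61F, a non-receptor tyrosine phosphatase gene on the same strand. The start of Ptp61F was 7118 bp away, so indra was the nearer promoter by far.

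CG14100 (chr3L:19589072-19590524, minus strand) had a similar arrangement. Its peak at chr3L:19590141-19590983 had its summit 85 bp upstream of the only annotated TSS and 164 bp from the 3′ end of ash1, which encodes a histone methyltransferase of the trithorax group. The TSS of ash1 lay 8146 bp away and had a summit of its own, ranked 3511 with a signal of 542.1.

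In 4 cases the summit lay in the 5′ UTR of the gene. For CG12054 (chr3R:31220702-31231259, plus strand) the peak spanned chr3R:31220474-31221569, and its summit was 219 bp downstream of the first TSS. CG10336 (chr2L:18689528-18690906, plus strand) had its peak at chr2L:18689372-18690001, with the summit 6 bp downstream of a TSS. In CG2059 (chrX:7286358-7288117, plus strand) the peak at chrX:7286105-7287074 had its summit 126 bp downstream of a TSS. The last was CG9147 (chr2L:6065997-6067635, plus strand), whose peak at chr2L:6065820-6066418 had its summit 17 bp downstream of a TSS.

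Ugalt (chrX:2701124-2703852, minus strand) was bound upstream of its start. Its peak was the narrowest of the 8 at 522 bp, spanning chrX:2703636-2704157, with the summit in intergenic sequence 35 bp upstream of the TSS. The widest peak was that of CG12054 at 1096 bp, and all 8 were wider than the 520.0 bp median of the 1358 strongest and the 362.0 bp median of the optimal list.

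Pp2C1 (chrX:4679988-4686903, minus strand) was the exception. Its peak at chrX:4684266-4685079 had its summit in an intron of the gene, 2148 bp downstream of the single annotated TSS. A separate summit stood in the 5′ UTR, 601 bp from that TSS. It ranked 7406 with a signal of 308.2, beside a rank of 14 and a signal of 5550.7 for the intronic summit.

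Some of the promoters lay close to the start of another gene. At 4 of the 7 promoter summits the TSS of a further protein-coding gene lay within 1 kb, beside 33.4% of all optimal summits near any coding TSS. With a limit of 500 bp the count was 1, and with so few genes nothing is read from it. In each case the neighbour ran the other way from a start less than 1 kb apart, a divergent pair. The tightest pair was CG9147 and Fbw5, which encodes an F-box protein with WD repeats, with starts 44 bp apart and the summit 151 bp from the Fbw5 start. Next came CG2059 and CG1677, with starts 163 bp apart and the summit 582 bp from this CG1677 start. CG2059 is nested in introns of CG1677 and of the long non-coding RNA gene lncRNA:CR44357, both on the opposite strand.

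The other divergent neighbours were more distant. The start of eIF2Bbeta, a subunit of the nucleotide exchange factor of eIF2, was 719 bp from that of Ugalt and 684 bp from the summit. The start of msl-1, a scaffold protein of the complex that carries out dosage compensation on the male X, was 728 bp from that of CG10336 and 897 bp from the summit. Pp2C1 also had a divergent neighbour, ctp, a dynein light chain gene, at 897 bp between the starts, but its strongest summit lay 3045 bp from the ctp TSS. Fbw5 and eIF2Bbeta had no optimal summit within 1 kb for which theirs was the nearest start, whereas msl-1, CG1677 and ctp each had 1, ranked 3590, 1064 and 5336. That of CG1677 lay 240 bp from another of its starts, not the divergent one. Peak lists alone cannot assign a summit between divergent starts to one gene.

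All 8 strongest summits were found in all 3 replicates. That is, each had a summit within 200 bp among the 13583 strongest lines of every replicate list. The peaks were taken from those found in all 3 replicates, so this count was fixed by the choice and nothing is read from it. Of all optimal summits 60.6% were found in this way, and of the 1358 strongest 98.6%. The positions of the 8 summits were stable. Of 24 replicate summits, 16 lay within 2 bp of the pooled summit, and the largest shift was 11 bp, in CG14100. The median shift was 1.5 bp, against 6.00 bp for the 1358 strongest and 11 bp for the whole list.

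The signal scale differed between the lists, whose medians were 86.1 in replicate 1, 37.8 in replicate 2 and 26.8 in replicate 3. Values were therefore also set against the median of their own list, on a log2 scale. The −log10 q values were capped in each list and held no order among the 8 genes, which all had 4.43 in the optimal list, as did 13361 of its 13583 lines.

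indra had the highest signal of the set, 8899.5 in the optimal list, where it ranked 2 after Pdp1. Its replicate signals were 5103.2, 2512.1 and 1324.7 in replicates 1, 2 and 3, at ranks 2, 1 and 2. The log2 signal over the list median averaged 5.86 ± 0.21 (SD, n = 3), and its rank varied less than that of any other of the 8 genes.

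CG12054 followed with an optimal signal of 6654.0 at rank 5, and with 3919.3, 1782.6 and 958.6 in the replicates, at ranks 5, 11 and 10. CG10336 had an optimal signal of 6336.6 at rank 8, and replicate signals of 3576.4, 1842.9 and 941.2 at ranks 7, 8 and 11. Their log2 values over the list median, 5.41 ± 0.22 and 5.37 ± 0.24 (SD, n = 3 each), differed by less than the spread between replicates.

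CG14100 and Ugalt stood apart from these by their unevenness. CG14100, with an optimal signal of 5996.2 at rank 9, had 2631.0, 2467.1 and 935.6 in the replicates, at ranks 32, 2 and 12. Ugalt, with 5741.6 at rank 11, had 2417.8, 2421.0 and 925.5, at ranks 40, 3 and 13. Both were among the 3 strongest peaks of replicate 2 and outside the 30 strongest of replicate 1. Their log2 values over the median, 5.36 ± 0.58 and 5.31 ± 0.62 (SD, n = 3 each), had the widest spread of the 8.

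Pp2C1 had an optimal signal of 5550.7 at rank 14 and replicate signals of 3082.3, 1646.8 and 842.6, at ranks 13, 18 and 22. CG2059 had 5158.9 at rank 18, with 2772.2, 1711.0 and 690.2 at ranks 21, 14 and 43. CG9147 had 5055.1 at rank 19, with 2542.6, 1626.5 and 919.5 at ranks 37, 19 and 15. Their log2 values over the median were 5.19 ± 0.24, 5.07 ± 0.41 and 5.14 ± 0.27 (SD, n = 3 each), so the order of these 3 genes was within the replicate error. Below indra, neighbours in the order of the 8 genes were in no case separated by more than their spread.

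**Figure D2:**
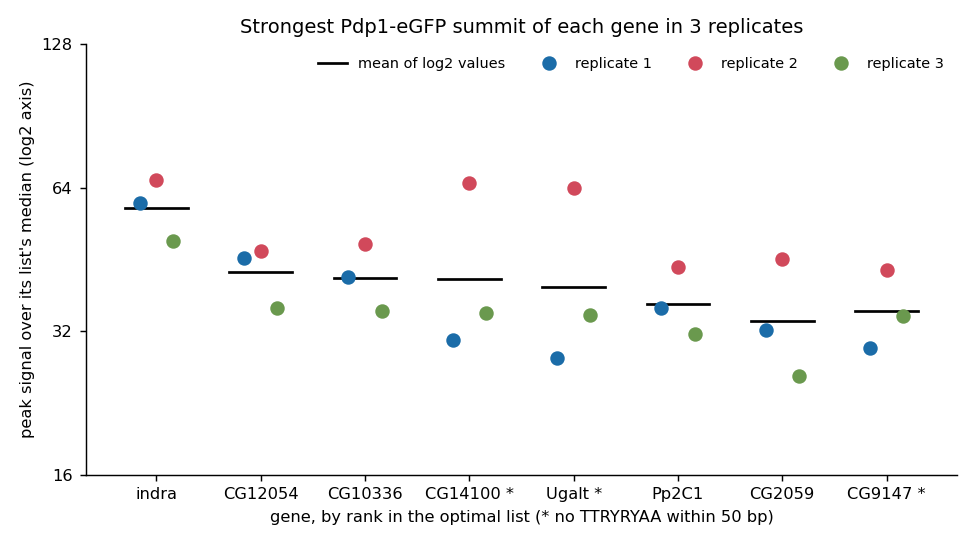
Signal of the strongest summit of each gene in replicates 1, 2 and 3, divided by the median signal of the same replicate list (log2 axis), with black bars for the mean of the log2 values and asterisks for genes without TTRYRYAA within 50 bp. Replicate 2 is highest for each gene, and the distance between replicates 1 and 2 is widest for CG14100 and Ugalt.

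The 8 genes were not equally prominent in the 3 replicates. Among the 20 strongest lines of a replicate list were 4 of them in replicate 1, 8 in replicate 2 and 6 in replicate 3, while all 8 were among the 50 strongest of each. At the limit of the 20 strongest peaks, those just inside were CG2059 (5158.9), CG9147 (5055.1) and Mic26-27 (5039.5). Just outside were a further summit nearest CG32369 (5008.4), CG13244 (4946.3) and CG11050 (4934.3), so signal changed little across the limit.

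The genes with and without the PAR bZIP word had different profiles over the replicates. With the word, the log2 signal over the list median in replicate 1 minus that in replicate 2 was between −0.49 and −0.05 (median −0.23, 5 genes). Without it the difference was between −1.19 and −0.54 (median −1.09, 3 genes). The ranges did not overlap. For replicate 1 minus replicate 3 they lay on opposite sides of 0, from 0.19 to 0.35 with the word and from −0.30 to −0.19 without it. The medians were 0.26 and −0.22.

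At the other 12 of the 20 strongest peaks the ranges overlapped. Replicate 1 minus replicate 2 was between −0.21 and 0.85 with the word (median 0.02, 6 peaks) and between −0.95 and 0.20 without it (median −0.47, 6 peaks). Replicate 1 minus replicate 3 was between 0.19 and 0.41 with it and between −0.29 and 0.33 without, with medians of 0.27 and −0.24. Among the 1358 strongest optimal summits, the median of replicate 1 minus replicate 2 was 0.43 for 655 summits with the word and −0.28 for 686 without it, and the medians against replicate 3 were 0.33 and −0.05. Summits matched in each of the 3 replicates entered these medians. The individual values ranged widely in both sets. The 8 genes are included here and in the next count. Of the 100 strongest summits, 54 had the word, and of these 49 ranked higher in replicate 1 than in replicate 2, and 4 lower. Of the 46 without it, 20 ranked higher in replicate 1 and 26 in replicate 2. Replicate 1 is 1 library, GC content moved with the word among the 8 genes, and the part of either in the pattern was not tested.

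**Figure D3:**
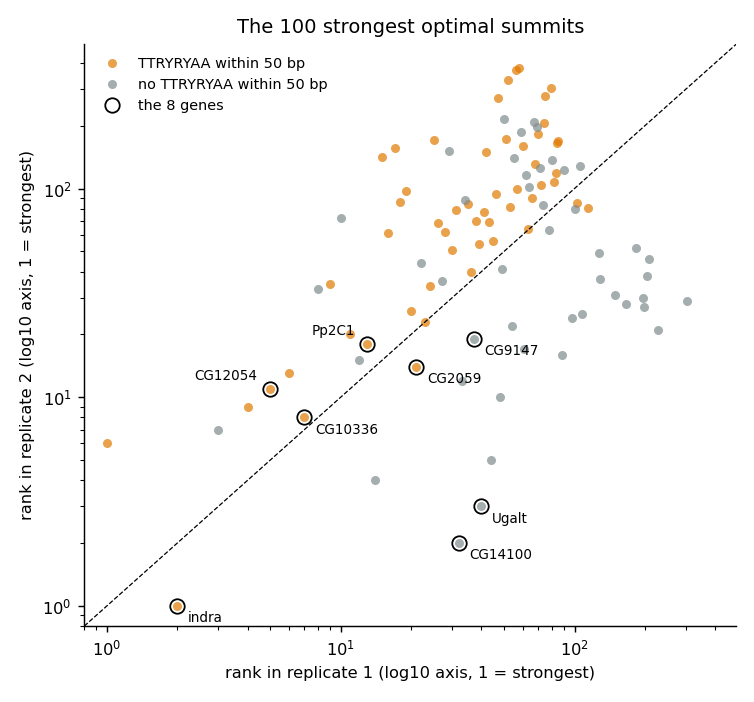
Rank in replicate 1 (x) and in replicate 2 (y) of the 100 strongest optimal summits, on log10 axes with 1 the strongest, coloured by TTRYRYAA within 50 bp and with the 8 genes circled. Most summits with the word (49 of 54) lie above the dashed line of equal rank. Below it lie CG14100, Ugalt and CG9147, which have none, and also indra and CG2059, which have the word.

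For each of the 8 genes the summit with the most similar profile was sought among 3590 summits, 1 for each gene, that lay near a coding TSS and were found in all replicates. Likeness was the Euclidean distance of the 3 log2 values over the list medians, where a smaller distance is more alike. CG14100 and Ugalt were each other's nearest, at a distance of 0.13. CG12054 and CG10336 were both nearest to ETHR, the receptor gene of ecdysis triggering hormone, at 0.08 and 0.13. CG2059 and Pp2C1 were both nearest to Hibch, an enzyme of valine breakdown, at 0.25 and 0.18. CG9147 was nearest to Lk6, a kinase of the translation initiation factor eIF4E, at 0.14. indra had the most distant neighbour, CG32369, at 0.44. The summits of ETHR and Hibch had TTRYRYAA, as did those of the genes matched to them, and that of Lk6 had none, as CG9147. indra was the exception, since its summit had the word and that of CG32369 had none. The measure rests on 3 values per summit and reflects overall signal as well as its pattern.

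Around the genes, 39 optimal summits lay in them or within 5 kb of them, from 3 at CG14100 to 8 at CG12054. indra and CG2059 had 4 each, and CG10336, CG9147, Ugalt and Pp2C1 had 5 each. The median over all protein-coding genes was 2.00 summits, with quartiles of 0 and 4. The 31 summits other than the strongest ranked lower, and most lay nearest to the start of another gene. For 25 of them the nearest coding TSS was that of another gene. Within 1 kb of a coding TSS lay 24, beside 50.9% of all optimal summits, and 22 were found in all 3 replicates, beside 60.6%. The ranks of the 31 ran from 50 to 12153 with a median of 5149.0, in a list of 13583 lines, and 7 were among the 1358 strongest. TTRYRYAA was within 50 bp of 7 of the 31, and TTAYGTAA of 3, beside 35.8% and 12.0% of all optimal summits.

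At CG12054, a summit 2272 bp away lay in an intron of ATPsynC, which encodes the membrane ring subunit of the mitochondrial ATP synthase. It ranked 67 with an optimal signal of 3422.8, and had 2022.7, 887.2 and 519.3 in the replicates. Another stood in the 5′ UTR of ATPsynC, with rank 214 and signal 2283.3. ATPsynC ran the other way from a start 1072 bp from that of CG12054, just past the 1 kb limit used for divergent pairs. The window of the intronic summit, chr3R:31218599-31218699 on the plus strand of dm6, is shown with its match to TTRYRYAA in capitals, a different word from that under the CG12054 summit.
ATPsynC: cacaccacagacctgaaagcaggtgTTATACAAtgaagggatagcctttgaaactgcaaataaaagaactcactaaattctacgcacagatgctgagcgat

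CG12054 was the only one of the 8 with a string of summits in its own body. Besides the strongest, a summit 213 bp further in the same peak ranked 627 (signal 1395.8), and 1 at a second TSS, 4348 bp from the strongest, ranked 947 (signal 1130.9). In its introns were summits ranked 3268, 4399 and 10594. The second of these held a canonical TTAYGTAA site. Its signal was 459.2, so this canonical site stood at a far weaker summit than TTGCATAA did.

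At the other loci the remaining summits were mostly at the starts of neighbours. CG2059 had a summit 1660 bp away, near a CG1677 start other than the divergent one, with rank 1064, signal 1053.5 and a TTAYGTAA site. Further summits near CG2059 lay by unc-119 and ranked 2785 and 9574. CG9147 had a pair at ND-51, a subunit gene of respiratory complex I, with ranks 832 and 1402, and weak summits at Pfdn1, a prefoldin subunit gene, and at Kr-h2, with ranks 11033 and 11235.

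Near CG10336 the summits were at msl-1 (rank 3590) and at CG10383 (ranks 1991, 5149 and 9399). Near CG14100 they were at CG9231 (rank 1617) and CG9330 (rank 11783). Near Ugalt the strongest of the rest was at Spg7, a mitochondrial protease gene, with rank 3368, and summits at CG2680, CG2681 and Lint-O ranked between 9225 and 10751. At Pp2C1 the third TTAYGTAA site of the loci lay under a summit of rank 12153 near fzr, an activator gene of the anaphase-promoting complex.

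**Figure D4:**
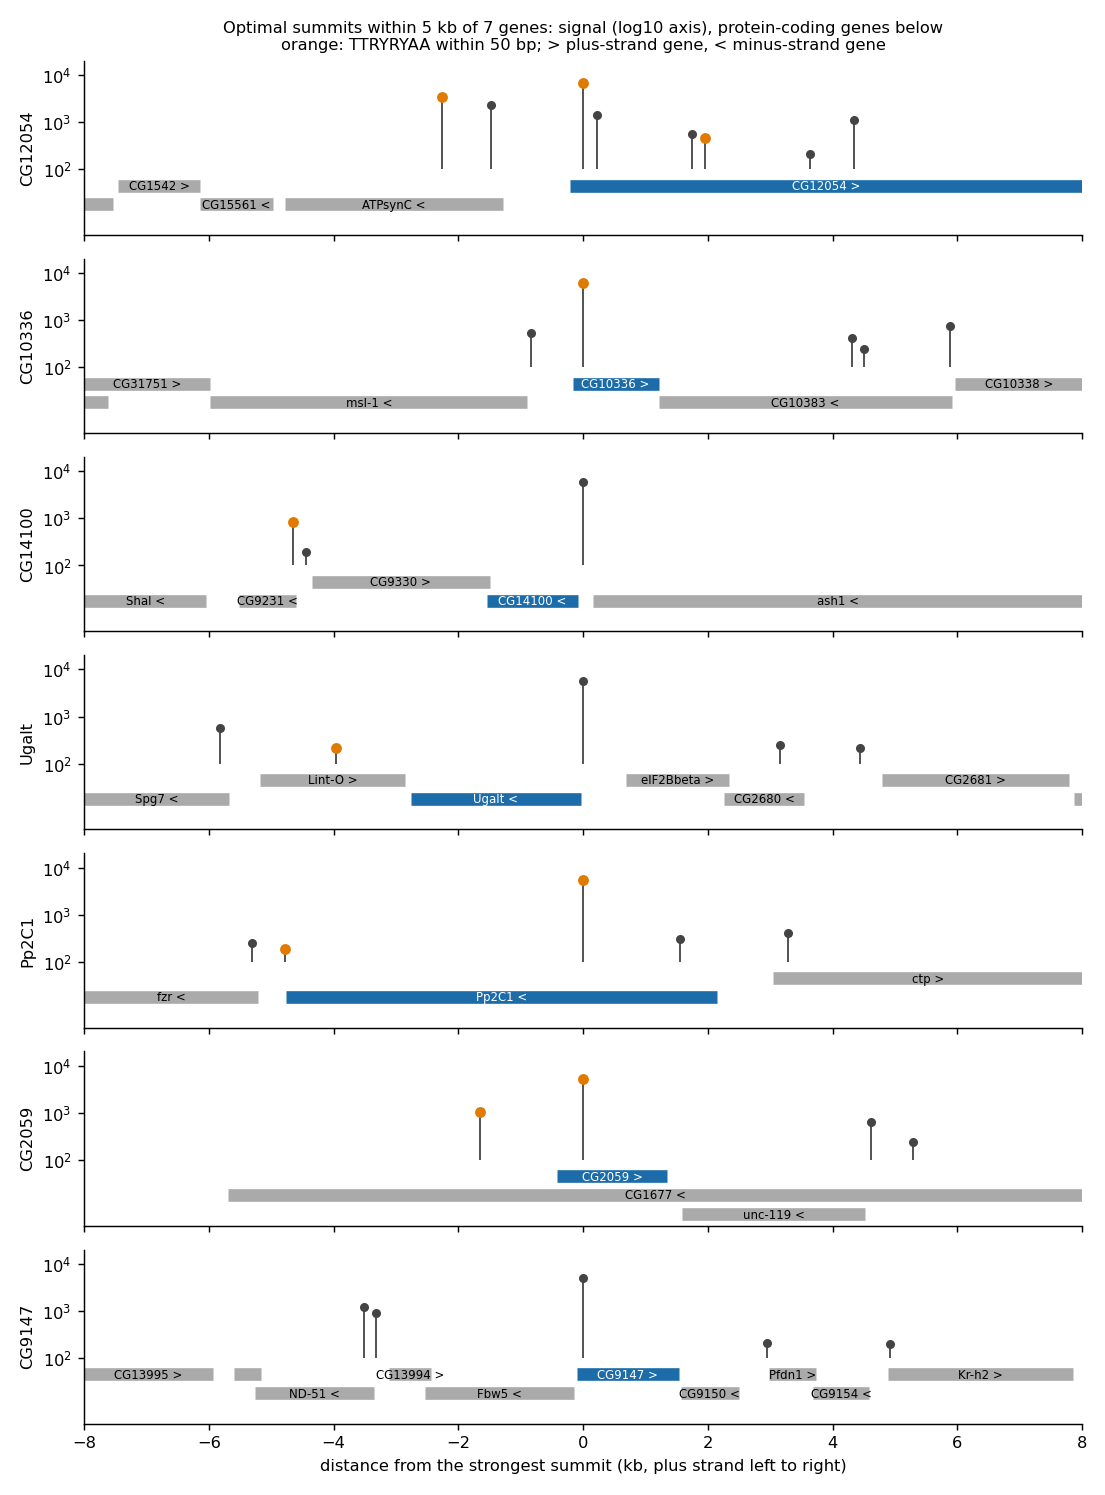
Optimal summits within 5 kb of 7 of the genes (indra is not drawn), with height the optimal-list signal (log10 axis) and distance from the strongest summit in kb on the x axis. Grey and blue bars are protein-coding genes (blue, the gene named at the left), and orange points are summits with TTRYRYAA within 50 bp. CG12054 has 8 summits and a strong pair at ATPsynC to the left, while CG14100 has 3.

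How far the strongest summit stood above the next one near the same gene varied among the 8. It was compared within each replicate, where signals share a scale. The next summit was the next strongest by optimal-list signal, and the same summit was used in each replicate. At indra the ratio was 2.11, 2.62 and 2.31 in replicates 1, 2 and 3 (2.35 ± 0.258, SD, n = 3). At CG12054 the ratio to the ATPsynC summit was 1.94, 2.01 and 1.85 (1.93 ± 0.0819, SD, n = 3). These were the lowest and least variable ratios.

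Pp2C1 was at the other end. Its intronic summit was 14.0, 26.3 and 10.1 times as high as the summit at ctp in replicates 1, 2 and 3 (16.8 ± 8.45, SD, n = 3). In replicate 2 the ctp summit (62.7) was lower than a summit near fzr (90.6) and that in the Pp2C1 5′ UTR (85.2). Ugalt had ratios of 7.77, 16.8 and 9.48 over the summit at Spg7 (11.3 ± 4.79, SD, n = 3). The lowest ratio of each of these genes was above every ratio of indra and CG12054.

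The other genes lay between. CG14100 had 4.98, 11 and 8.93 over CG9231 (8.32 ± 3.08), and CG10336 had 11.1, 6.55 and 6.32 over CG10383 (7.98 ± 2.68, SD, n = 3 each). CG2059 had 3.56, 11.8 and 5.66 over CG1677 (6.99 ± 4.26, SD, n = 3), so replicate 2 set its mean. A summit by unc-119 was higher than that at CG1677 in replicate 2 (192.4 against 145.5) and in replicate 3 (128.8 against 122.0). CG9147 had 3.15 in replicate 1 and 3.96 in replicate 3 over the stronger summit at ND-51, which had no match within 200 bp in replicate 2. The other summit at ND-51 had a signal of 298.6 in replicate 2. Within replicates, Pp2C1 had a higher ratio than Ugalt in each of the 3, and Ugalt a higher one than CG14100 and CG2059 in each. CG10336 was above Ugalt in replicate 1 and below it in replicates 2 and 3, and CG14100 was above CG2059 in replicates 1 and 3 and below it in replicate 2. These orders refer to the summits named. They were not the next strongest at CG2059 in replicates 2 and 3, nor at Pp2C1 in replicate 2.

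**Figure D5:**
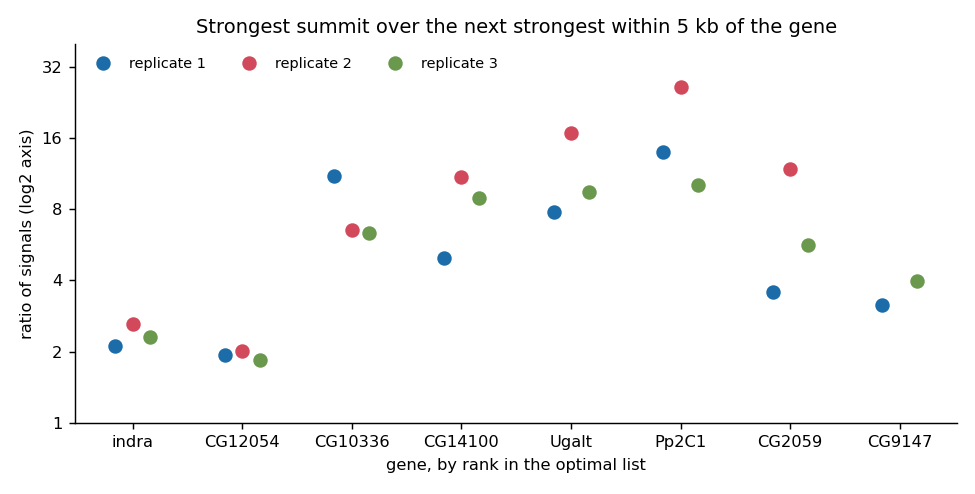
Ratio of the signal of the strongest summit to that of the next strongest of the optimal list within 5 kb of the gene (log2 axis) in replicates 1, 2 and 3. The same next summit is used in each replicate. Values for indra and CG12054 lie between 1.85 and 2.62, those for Pp2C1 between 10.1 and 26.3, and CG9147 has no point for replicate 2.

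Genes related to Pp2C1 and Ugalt were described by their strongest summit within 1 kb of a start. Of 11 PP2C phosphatase genes other than Pp2C1, 7 had such an optimal summit, beside 44.1% of all protein-coding genes. The strongest was at Pdp, which encodes pyruvate dehydrogenase phosphatase (rank 848, signal 1192.8), followed by CG7115 (rank 1201), CG12091 (rank 1277), alph (rank 2647), CG10376 (rank 3942), CG17746 (rank 5091) and fig (rank 8003). Ppm1, CG10417, CG17598 and Phlpp had none. By the same measure Pp2C1 itself ranked 7406 with a signal of 308.2, below each of these but fig, since its strong summit lies outside the 1 kb window.

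Of 7 nucleotide sugar transporter genes other than Ugalt, 6 had such a summit, beside 44.1% of all protein-coding genes. The 6 were frc (rank 526, signal 1529.5), senju (rank 2720), sll (rank 5322), Efr (rank 6936), Papst2 (rank 9471) and nac (rank 10786), while meigo had none. These gene products carry nucleotide sugars, or the sulphate donor PAPS in the case of sll and Papst2, into the Golgi or endoplasmic reticulum. At rank 11, with a signal of 5741.6, Ugalt stood above each of them. Since Ugalt was chosen for its signal, that order is a description.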

How the data were processed

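The deposited data were narrowPeak lists of anti-GFP ChIP-seq peaks on dm6 (dm3 lists were not used here). Per the deposited file records, relaxed lists of 30000 lines were called against a control alignment for each replicate and for the pooled replicates, and the authors derived an optimal list of 13583 lines by the irreproducible discovery rate. No aligner or peak caller is named in the sources used here. Deposited signal is the authors' own value per peak, relative to control, on a scale that differs between lists, and the deposited −log10 q values were capped. The lists hold no read counts, so depth was unknown. Per the labels, chromatin was sonicated to 200 to 800 bp. Replicate numbers came from the labels.

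Summits were made 1-based and assigned to the nearest protein-coding TSS of Ensembl release 115 (BDGP 6.54) with Python 3.11.15, NumPy 2.4.6 and pandas 2.3.3. None of the 133565 dm6 intervals on the 6 main arms passed an arm end of the Release 6 genome (0 intervals). Summits within 200 bp counted as shared. The motif and matching steps were tested on simulated data. No test was run. The 8 genes and the related lists were chosen with earlier results of these data known. Named were the 8 genes, genes with a TSS within 1 kb of a strongest summit, genes at optimal summits within 5 kb, the related lists, the gene of most similar profile, and those at the limit of the 20 strongest peaks. Neighbours at gene ends (Ptp61F, ash1) were added after their positions were seen. CG6036 and Gfr were not matched to the annotation, and 1 further related list was not analysed here. Part of the indra locus is not reported here.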

Additional observations from a re-analysis of the deposited data

How the results depend on the processing

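Of 29 alternatives to 9 counts or values, 24 left the result within the spread between replicates or within 1.5 times the count, and 5 moved it. The number of strongest summits with the PAR bZIP word was 5 with windows of 25, 50 or 100 bp but 0 with TTAYGTAA alone, a narrower pattern by construction. The number with another coding TSS nearby was 4 within 1 kb and 1 within 500 bp, and 5 when divergent pairs were counted by the distance between their starts. The median rank of the 8 summits was 10 in the optimal list and 17.0 in replicate 1, with a standard deviation of 3.77 over the replicates. As a mean of 2 replicates it ran from 10 without replicate 1 to 19.8 without replicate 2, and was 16.2 without replicate 3. The cause was not tested. The number of genes with a summit near a TSS was 8 with 1 kb and 7 with 500 bp, 250 bp or the stronger part of the list above its median signal. The 39 summits within 5 kb became 26 to 31 under stricter counts, and all 8 strongest summits were found under each matching limit tried. Only limits stricter than the main one could have lowered that last count, since the peaks were chosen as found under the main limit. No paired analysis was possible because the series has 1 group. Unknown depth leaves the precision of single signals unknown, and the spread over 3 replicates is the only error given.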
